A study of Mus musculus with 6 samples.

Results

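The genes described here are Yap1, its paralog Wwtr1, which encodes Taz, the DNA-binding partners Tead1, Tead2, Tead3 and Tead4, and the TEAD cofactors Vgll3 and Vgll4. All probes whose platform annotation gave 1 of these 8 symbols were taken, which gave 17 of the 45281 probes on the array. RNA of whole mouse kidneys at E13.5 was hybridised to 6 Illumina bead arrays, 3 from kidneys named YapCM-/- and 3 from control kidneys. Both groups shared the mixed C57BL/6 and 129S1/SvImJ background. The labels give the second group only as control, and name neither the Cre driver nor the alleles that the controls carry. From what is known of the study, the letters CM refer to cap mesenchyme, that is, to nephron progenitors, so that the other cells of the organ were not the target of the deletion. The labels do not say whether each array holds a separate embryo, a litter or a pool, and the p-values given here rest on a spread between arrays that could be technical in part. The comparison asks whether the paralog and the partners differ in whole kidneys in which Yap1 is reduced. Signal of other cells is mixed in, so a change within the progenitors alone could be understated or missed.

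Yap and Taz are transcriptional coactivators without a DNA-binding domain of their own. The Hippo kinases Lats1 and Lats2 phosphorylate them and hold them in the cytoplasm. When the kinases are inactive, Yap and Taz enter the nucleus and bind TEAD proteins, which recognise the M-CAT element in promoters and enhancers. Vgll proteins bind the TEADs too, and Vgll4 competes with Yap for them. In the developing kidney Yap is needed in the nephron progenitors for the formation of nephrons.

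The promoter table of RefSeq (build GRCm38.p6) matched 6 of the 8 genes, with 9 start sites. The stretches shown here lie upstream of those start sites and outside the annotated gene, and they are given because they hold, or lack, the letters that TEAD proteins are known to bind. Capitals mark GGAATG, the core of the M-CAT element, or its reverse complement CATTCC. The Yap1 stretch is chr9:8004639-8004846 on the minus strand, with its match 141 bases before the start site. This stretch stops short of the start site, since its full window runs on to 8004597. The distance of its match counts the bases not shown. The Wwtr1 stretch is chr3:57575911-57576160 on the minus strand, with the match 136 bases before the start. The Tead3 stretch is chr17:28350806-28351055 on the minus strand, with the match 182 bases before the start. The Tead2 stretch is chr7:45215542-45215791 on the plus strand and holds no match.
Yap1: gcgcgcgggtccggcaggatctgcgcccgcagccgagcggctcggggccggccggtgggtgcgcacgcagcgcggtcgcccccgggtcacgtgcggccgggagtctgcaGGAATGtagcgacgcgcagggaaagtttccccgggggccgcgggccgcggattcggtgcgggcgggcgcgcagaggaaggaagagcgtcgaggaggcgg
Wwtr1: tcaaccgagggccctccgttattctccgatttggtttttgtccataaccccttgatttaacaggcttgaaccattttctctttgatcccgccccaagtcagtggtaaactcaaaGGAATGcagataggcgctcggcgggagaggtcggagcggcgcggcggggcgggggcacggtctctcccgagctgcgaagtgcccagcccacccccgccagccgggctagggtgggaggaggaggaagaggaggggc
Tead3: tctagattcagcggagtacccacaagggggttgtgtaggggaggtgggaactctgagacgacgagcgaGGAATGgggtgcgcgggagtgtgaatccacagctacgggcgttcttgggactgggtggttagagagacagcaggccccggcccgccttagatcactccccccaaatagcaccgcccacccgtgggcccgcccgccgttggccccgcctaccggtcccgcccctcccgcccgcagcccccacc
Tead2: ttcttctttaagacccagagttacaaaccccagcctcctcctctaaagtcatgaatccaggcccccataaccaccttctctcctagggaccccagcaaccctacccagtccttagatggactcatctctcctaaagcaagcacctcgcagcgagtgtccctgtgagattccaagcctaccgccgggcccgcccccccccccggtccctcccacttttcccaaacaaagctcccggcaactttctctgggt

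In the 250 bases before the start site, on either strand, 7 of the 9 member start sites held the motif, and they belonged to 5 of the 6 genes, Yap1, Wwtr1, Tead3, Vgll3 and Vgll4. Of all 32851 promoters in the table, 12.6% held it in a window of the same length. Windows of Wwtr1, which share 1 match, and of Tead3 overlap, so the start sites are not independent. A match is a run of letters and was not tested as a binding site.

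Each probe is given as a log2 signal that was already quantile normalized by the authors. The median over all probes was 7.30 on each array, and no background subtraction is visible, so differences of dim probes are understated. Of the 17 probes, 10 belonged to the brighter 50% of the array by their mean over the 6 samples and entered the test, and they covered 7 of the 8 genes. The other 7 probes, among them the only Tead3 probe, lay below that filter and are given with values from the same model fitted without it. Correlations between arrays, across tested probes, lay between 0.983 and 0.993, and control replicate 2 lay farthest out on the first principal component. Xist was high in YapCM-/- replicate 3 and in control replicate 2, so embryos of both sexes were present in each group. Marker genes of the kidney were present, with the nephron progenitor factor Six2 at a mean of 8.46 in YapCM-/- and 8.83 in control kidneys, the bud tip receptor Ret at 9.93 in YapCM-/- and 9.10 in control kidneys and the stromal factor Foxd1 at 11.18 in YapCM-/- and 11.12 in control kidneys.

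In control kidneys the probes of these genes ranged from the bright end of the array to its floor. The Tead2 probe was the brightest, at rank 619 of 45281 (percentile 98.6). The brightest Wwtr1 probe followed at rank 1839 (percentile 95.9) and the brightest Tead1 probe at rank 1979 (percentile 95.6). The Yap1 probe stood at rank 4335 (percentile 90.4) and the Vgll4 probe at rank 9225 (percentile 79.6). The brightest probes of Vgll3, at percentile 64.6, of Tead4, at percentile 56.9, and of Tead3, at percentile 49.4, lay in the dense mass of dim probes. Probes of a single gene lay as far apart as probes of different genes: the 3 Tead1 probes stood at percentiles 95.6, 84.6 and 0.875. Brightness depends on the probe as well as on the transcript, so these ranks place probes on the array and give no order of abundance between genes.

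**Figure D1:**
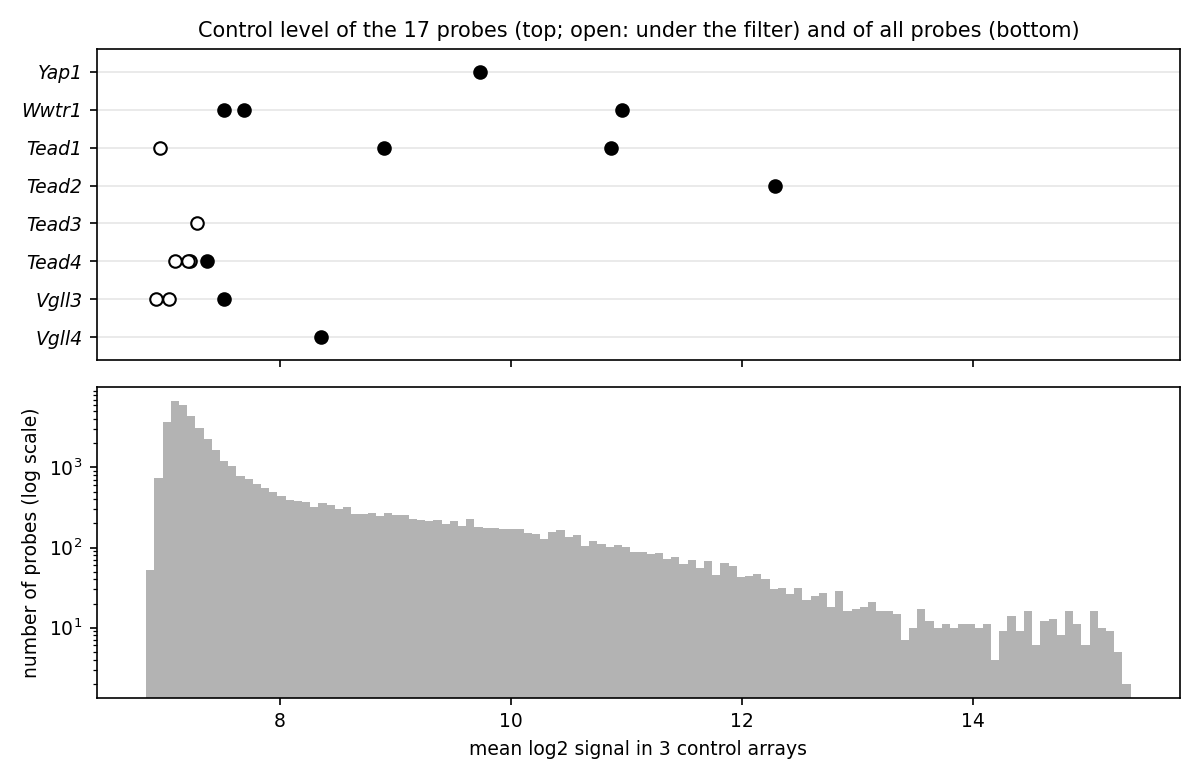
Mean log2 signal in the 3 control arrays of each of the 17 probes, in a row per gene (top; open circles lie below the filter), above the histogram of all 45281 probes on the same axis (bottom; log scale of counts). The Tead2 probe and the brightest Wwtr1 and Tead1 probes lie far to the right of the mass of dim probes, and every Tead3, Tead4 and Vgll3 probe lies within it.

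Yap1 fell in YapCM-/- kidneys and was the only member past the threshold. Its probe read 8.91, 8.72 and 8.99 in YapCM-/- kidneys, against 9.75, 9.81 and 9.64 in control kidneys. All YapCM-/- arrays lay below all control arrays, with a wide gap between the groups. The log2 difference was -0.86 (95% interval -1.07 to -0.65, limma adjusted p = 0.0102), so the signal in YapCM-/- kidneys was 55.1% of that in control kidneys, with an interval from 47.7% to 63.7%. By p-value the probe ranked 8 among the 22640 tested, of which 0.177% passed the threshold, 0.102% with a lower signal in YapCM-/- kidneys. In RNA of a whole organ, fewer cells of a type and less RNA per cell cannot be told apart, and the position of the probe relative to the deleted exons was not analysed here.

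The call for Yap1 was lost with control replicate 1 left out (adjusted p = 0.0954), with control replicate 3 left out (adjusted p = 0.0518) and after background subtraction (log2 difference -1.04, adjusted p = 0.0722). Among the 4 arrays with low Xist the difference was -0.88, from means of 8.81 in YapCM-/- and 9.69 in control kidneys, and between the 2 arrays with high Xist it was -0.82. Of 14 tested markers of the cap mesenchyme 2 fell, Meox2 by 1.09 and Cited1 by 0.72 on the log2 scale (limma adjusted p = 0.00175 and 0.00662), against 0.153% of 11762 tested genes that fell, and 12 did not pass, with 9 of the 14 differences below 0 and 5 above. The summed linear signal of these markers lay between 8857 and 9675 in YapCM-/- and between 9644 and 11474 in control kidneys, and the lowest of them in control kidneys, Dpf3, was at percentile 68.1. Their part in the Yap1 difference was not tested. Among markers of other cell types, limma called 1 of 8 tested ureteric bud genes, Ret, as higher (log2 difference 0.83, adjusted p = 0.0147), and none of 10 stromal, 9 endothelial, 6 erythroid, 7 macrophage, 3 neural and 1 gonad or adrenal genes. At an unadjusted p under 0.05, where 6.86% of all tested genes stood as lower and 6.6% as higher, were 6 lower and 1 higher of the cap mesenchyme markers, 1 lower and 1 higher of the ureteric bud genes, 3 lower and 1 higher of the stromal genes, 1 lower and 3 higher of the endothelial genes, 1 higher erythroid and 1 lower neural gene.

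Wwtr1, the paralog, had 3 probes and none passed the test. The brightest read 11.07, 11.17 and 10.98 in YapCM-/- kidneys, against 11.07, 10.97 and 10.85 in control kidneys. The groups overlapped, with the highest array from the YapCM-/- group and the lowest from the control group. The log2 difference was 0.11 (95% interval -0.09 to 0.31, limma adjusted p = 0.689), which places the YapCM-/- signal between 94.3% and 124% of control. With 1 array left out it ran from 0.05 to 0.16, with 0.05 without control replicate 3, 0.07 without YapCM-/- replicate 2 and 0.16 without control replicate 1. Its second probe, much dimmer, read 7.69, 7.79 and 7.90 in YapCM-/- kidneys and 7.71, 7.58 and 7.77 in control kidneys, a difference of 0.10 (adjusted p = 0.715). The third pointed the other way, with 7.38, 7.34 and 7.44 in YapCM-/- kidneys below 7.56, 7.50 and 7.50 in control kidneys. Its groups did not overlap, yet the difference of -0.13 (95% interval -0.30 to 0.03) did not pass (adjusted p = 0.541). After background subtraction it was -0.34 (adjusted p = 0.442). Averaged over the 3 probes, Wwtr1 differed by 0.03 (adjusted p = 0.899).

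The difference between the paralogs was tested on the same arrays. The brightest Wwtr1 probe minus the Yap1 probe came to 2.16, 2.45 and 1.99 on the log2 scale in YapCM-/- kidneys, against 1.32, 1.16 and 1.21 in control kidneys. Only the change of this value between groups can be read, since 2 probes differ in brightness. Every YapCM-/- array lay above every control array. The change was 0.97, or 1.96-fold, with an exact two-sided permutation p of 0.1, the smallest that 3 against 3 arrays can give. It lay between 0.85 and 1.08 with 1 array left out in turn. With same-numbered arrays as blocks, an exact two-sided sign-flip test gave p = 0.25, the smallest that 3 pairs can give. Most of the change came from the Yap1 difference of -0.86, while the Wwtr1 difference was 0.11. Yap1 is the deleted gene, so the separation of the groups does not show whether Wwtr1 moved.

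**Figure D2:**
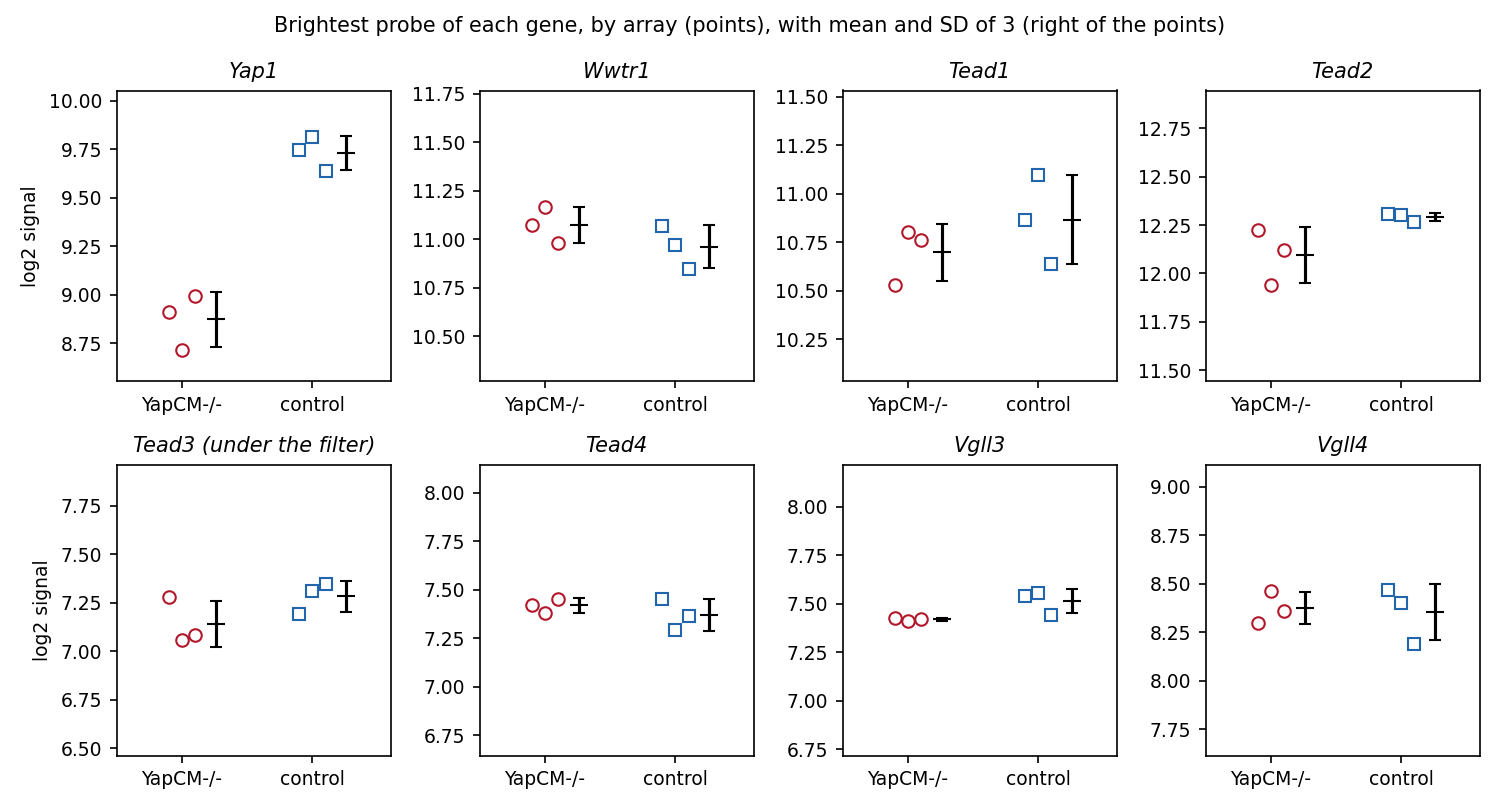
Log2 signal of the brightest probe of each gene on each array, YapCM-/- (circles, left) and control (squares, right), with mean and SD of 3 beside the points. Each panel spans the same range on the log2 scale. The groups are far apart for Yap1, apart by less for Tead2 and narrowly for Vgll3, and overlap for the other 5 genes.

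The TEAD factors carry Yap and Taz to DNA. Tead1, Tead2 and Tead4 were tested and none passed, while Tead3 had no probe above the filter. Tead2, an embryonic TEAD factor with the brightest probe of the group, came closest. It read 12.22, 11.94 and 12.12 in YapCM-/- kidneys, against 12.31, 12.30 and 12.27 in control kidneys. The groups did not overlap, and the control arrays lay close together while YapCM-/- replicate 2 was lowest. The difference was -0.20 (95% interval -0.39 to 0.001, limma adjusted p = 0.439), which leaves the YapCM-/- signal between 76.2% and 100.1% of control. With 1 array left out it ranged from -0.26 to -0.12, and it was -0.12 without YapCM-/- replicate 2. The value was -0.20 among the low-Xist arrays and -0.18 between the high-Xist arrays.

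Tead1 had 2 tested probes of opposite sign. The brighter read 10.53, 10.80 and 10.76 in YapCM-/- kidneys, against 10.86, 11.10 and 10.64 in control kidneys, a difference of -0.17 (95% interval -0.44 to 0.10, limma adjusted p = 0.657). The groups overlapped, and control replicate 2 was the highest array. Without that array the difference was -0.05, and without control replicate 3 it was -0.28 (adjusted p = 0.376). The mean of the 3 Tead1 probes differed by -0.0018, but it gives equal weight to a probe at the floor of the array. The other tested probe read 9.29, 8.89 and 8.82 in YapCM-/- kidneys, against 8.83, 8.90 and 8.96 in control kidneys, a difference of 0.10 (adjusted p = 0.802). Its sign came from YapCM-/- replicate 1, without which it was -0.04. The third probe, at the floor of the array, differed by 0.06.

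Tead3 and Tead4 were dim on every probe, and Tead4 is best known from the trophectoderm. The only Tead3 probe read 7.28, 7.06 and 7.08 in YapCM-/- kidneys, against 7.19, 7.31 and 7.35 in control kidneys. The groups overlapped through YapCM-/- replicate 1, and the difference was -0.14 (95% interval -0.32 to 0.03, limma adjusted p = 0.656 over all 45281 probes). Background subtraction turned this into -0.53, again not past the threshold (adjusted p = 0.680). The tested Tead4 probe read 7.42, 7.38 and 7.45 in YapCM-/- kidneys, against 7.45, 7.29 and 7.36 in control kidneys, a difference of 0.05 (adjusted p = 0.867). The other 3 Tead4 probes differed by -0.09, -0.09 and -0.04, and the mean of the 4 by -0.04.

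The Vgll cofactors bind TEADs in place of Yap and Taz. Vgll4, a repressor of Yap and TEAD activity, read 8.30, 8.46 and 8.36 in YapCM-/- kidneys, against 8.47, 8.40 and 8.19 in control kidneys. The groups overlapped fully, with the highest and the lowest array both in the control group. The difference was 0.02 (95% interval -0.19 to 0.23, limma adjusted p = 0.962), and its sign turned without control replicate 3 (-0.06) and without YapCM-/- replicate 2 (-0.02). The brightest Vgll3 probe read 7.43, 7.41 and 7.42 in YapCM-/- kidneys, against 7.54, 7.56 and 7.44 in control kidneys. The groups were apart only narrowly, and the difference of -0.09 did not pass (95% interval -0.26 to 0.07, adjusted p = 0.688). The other 2 Vgll3 probes lay at the floor of the array and differed by -0.04 and -0.003.

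**Figure D3:**
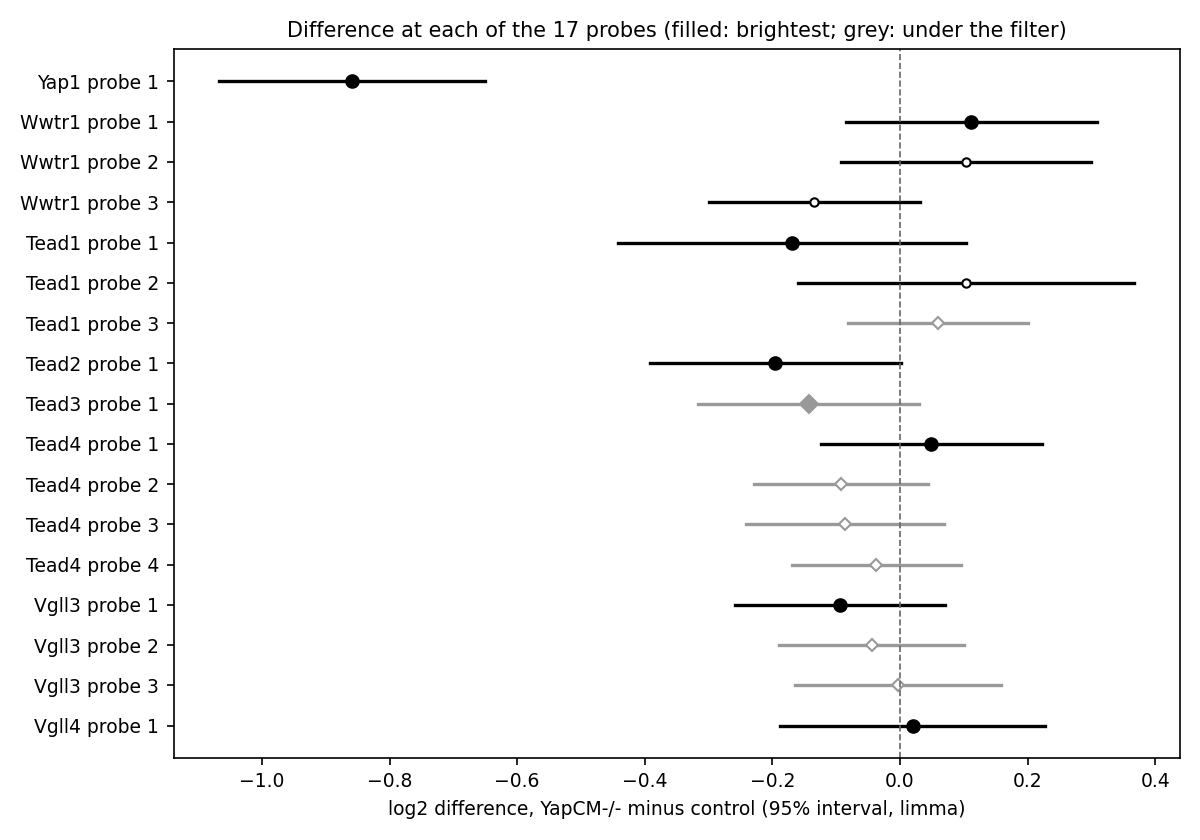
Log2 difference, YapCM-/- minus control, with its 95% interval from limma, at each of the 17 probes (filled: brightest probe of the gene; grey: below the filter, from the fit without it). The interval of Yap1, from -1.07 to -0.65, overlaps none of the others, whose lowest limit is -0.44, and all the others contain 0.

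Over the 16 probes other than Yap1, differences ran from -0.20 to 0.11, with 10 below 0 and 6 above. Their 95% intervals, which are not adjusted for the number of probes, reached no lower than 73.6% and no higher than 129% of the control signal as deposited, without background subtraction. After that subtraction the dim probes spread wider, from -0.53 for Tead3 to 0.33 for the third Tead1 probe, and none passed. None of the 9 tested ones passed the threshold in limma, and 0 were under an unadjusted p of 0.05, where 11.5% of all tested probes were. In the fit without a filter the third Wwtr1 probe and the Tead2 probe were under it, 2 of 16 against 8.91% of all probes, and 0 passed after adjustment, where 0.0839% of all probes passed. The groups did not overlap at 3 of the 16, or 18.8%, against 13.7% of all probes. All 3, at Wwtr1, Tead2 and Vgll3, had YapCM-/- lower, which held at 6.98% of all probes. The median difference of the 7 genes other than Yap1, by their brightest probe, was -0.09, which is the value of the dim Vgll3 probe. That of all 11762 tested genes was 0.004, a set without Tead3, which is among the 7. For Wwtr1, Tead1 and Tead4, other probes had the opposite sign to the brightest.

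**Figure D4:**
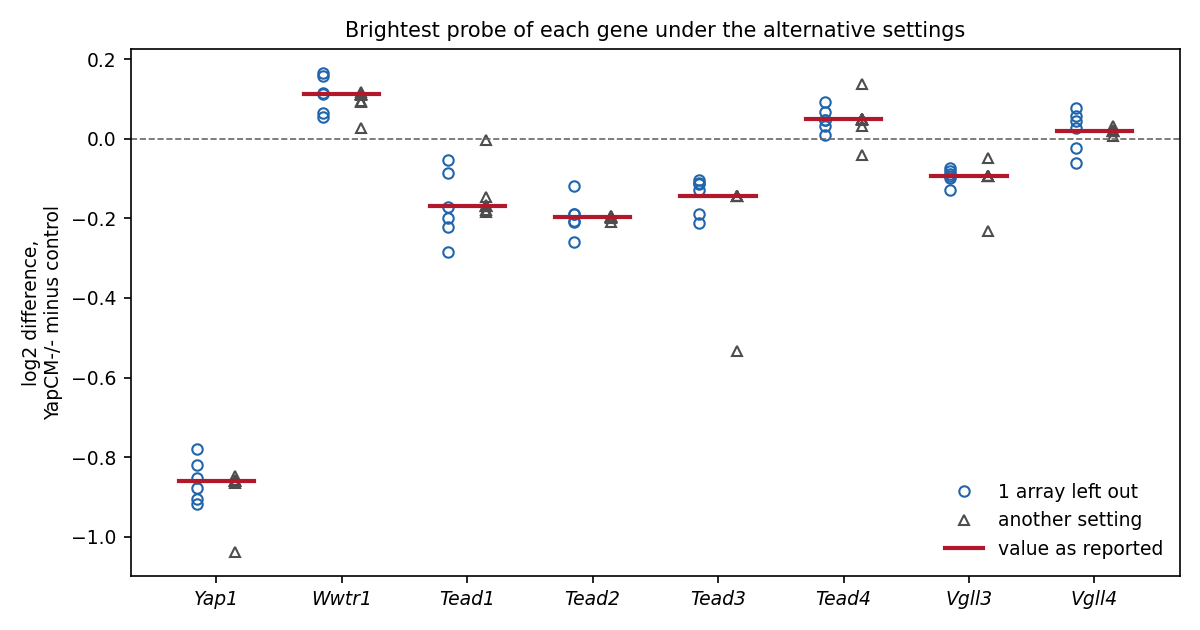
Log2 difference of the brightest probe of each gene, YapCM-/- minus control, as reported (red bar), with 1 array left out in turn (circles) and under other settings (triangles). Yap1 stays between -1.04 and -0.78 throughout, and Tead4 and Vgll4 cross 0.

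The kinases and scaffolds upstream of Yap and Taz did not pass the test either. Of the 27 genes of this list with a probe 25 were tested, and 0 passed over all probes in limma, where 0.153% of tested genes passed as lower and 0.111% as higher. At an unadjusted p under 0.05 stood 5 lower and 2 higher genes of the 25, where 6.86% and 6.6% of all tested genes stood. The median difference of the list was -0.06. The 2 genes with the smallest p were scaffolds that act upstream of the kinases. Frmd6, the relative of Drosophila expanded, read 8.66, 8.80 and 9.02 in YapCM-/- kidneys, against 9.25, 9.18 and 9.11 in control kidneys, a difference of -0.35 (limma adjusted p = 0.230). Wwc2, of the Kibra family, read 10.75, 10.88 and 10.86 in YapCM-/- kidneys, against 11.12, 11.07 and 11.10 in control kidneys, a difference of -0.27 (adjusted p = 0.230). The groups were apart for both genes.

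None of the tested targets of Yap and TEAD passed. Of 23 measured genes in this list 17 were tested and 0 passed over all probes in limma, where 0.153% of tested genes passed as lower and 0.111% as higher. At an unadjusted p under 0.05 stood 4 lower and 0 higher, where 6.86% and 6.6% of all tested genes stood, and the median of the list was -0.08. Igfbp3 and Dock5 are named because they had the 2 smallest p of the list. Igfbp3, which encodes a binding protein of insulin-like growth factors, read 9.51, 9.57 and 9.52 in YapCM-/- kidneys, against 10.13, 9.85 and 9.85 in control kidneys. The groups were apart, and the difference of -0.41 had a limma adjusted p of 0.161. Dock5, a guanine nucleotide exchange factor of Rac, read 8.04, 8.07 and 7.95 in YapCM-/- kidneys, against 8.25, 8.38 and 8.16 in control kidneys, a difference of -0.25 (adjusted p = 0.314). Ajuba and Ptpn14 belong to both lists.

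**Figure D5:**
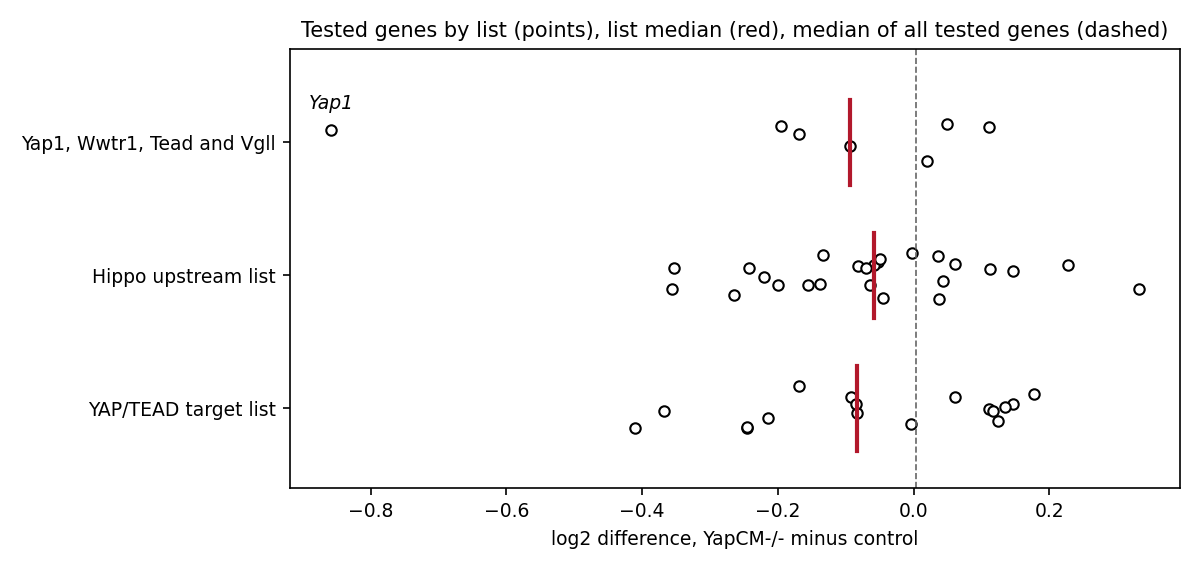
Log2 difference, YapCM-/- minus control, of each tested gene by its brightest tested probe (circles), for the 7 tested genes of the Yap, Taz, Tead and Vgll group, the 25 of the Hippo upstream list and the 17 of the target list, with the list median (red) and the median of all tested genes (dashed). Yap1, at -0.86, is the only gene past the threshold.

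The genes whose signal followed Yap1 most closely over the 6 arrays, among 11761 other tested genes, were Pls1 (Pearson r = 0.995), Ubap1 (r = 0.994) and Bcap29 (r = 0.994). Their own differences were -0.23, -0.16 and -0.30, none past the threshold (limma adjusted p from 0.193 to 0.434). The groups are far apart for Yap1, so these correlations describe mainly that separation. For the brightest Wwtr1 probe, whose groups overlap, the closest were Clpx (r = 0.986), Adnp (r = 0.982) and Manbal (r = 0.981). With 6 arrays and this many genes such values are a description only.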

How the data were processed

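Per the labels' protocols, column-purified total RNA was quality-checked and turned into biotin-labelled cRNA for Illumina bead arrays. The deposited values are log2 signals of 45281 probes in 1 column per sample, and their sorted values differ between columns by at most 0.00608, as quantile normalization leaves them. For the software and any background step, nothing is stated in the sources used here. A second deposited table, with 12 columns of per-sample values whose names match no label, was not used here. Probes were named through the platform annotation, where 34885 probes had 1 symbol, and each probe was tested by itself. The 22640 probes above a mean log2 of 7.29 were fitted in limma 3.58.1 (R 4.3.3) with lmFit and eBayes, without covariates, two-sided, adjusted by Benjamini-Hochberg over all of them at a threshold of 0.05. A gene was represented by its brightest probe, and in lists by its brightest tested probe. The planned exact test compares the paralogs. In simulated data the fit recovered 4.19% of log2 differences of 0.25, 79.4% of those of 0.5 and 99.8% of those of 1. The simulated noise was normal and independent between probes, at each probe's spread as moderated by limma. More probes were changed in each simulated run than passed in the real arrays, so the real arrays could recover smaller shares. Differences as small as those of the members other than Yap1 would rarely pass. Settings tried were no filter, the brightest 25% of probes, trend and robust eBayes, array weights, a block for the replicate number, subtraction of each array's percentile 1 with 16 added, cyclic loess, Xist as a covariate, the mean of a gene's probes, and each array left out. Named genes are all probes of the 8 members, list genes past the threshold or else the 2 with the smallest p, the 3 genes most correlated with Yap1 and with Wwtr1, and marker genes that define the tissue. The members and lists were chosen with earlier results of these data known. Precision is limited by having 3 arrays in each group.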

Additional observations from a re-analysis of the deposited data

How the results depend on the processing

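The count of 40 called probes became 64 with trend and robust eBayes, 67 with Xist as a covariate, 26 among the brightest 25% of probes and 10 after background subtraction, and from 6 to 27 with 1 array left out; it was 9, 12, 6 and 25 without control replicates 1, 2 and 3 and YapCM-/- replicate 2. With the replicate number as a block it was 138, and the block changed no call of a member; Yap1 stood at -0.86 (limma adjusted p = 0.00718). Same-numbered arrays did not deviate together in every pair (r = 0.132, 0.142 and -0.0212). These values rest on deviations from means of 3 arrays and cannot settle whether the numbers mark pairs. The main fit used no block. Yap1 kept its sign under all 14 alternatives, from -0.92 to -0.78 with 1 array left out, and lost its call in 3 of them, at -0.85 without control replicate 1, -0.91 without control replicate 3 and -1.04 after background subtraction. The Wwtr1, Tead1, Tead2, Tead3 and Vgll3 brightest probes kept their sign and stayed short of the threshold under all their alternatives. The mean of its probes turned Tead4 to -0.042. With 1 array left out, the second Tead1 probe ran from -0.039 to 0.19, Vgll4 from -0.062 to 0.078 and the third Vgll3 probe from -0.061 to 0.044, and background subtraction put that Vgll3 probe at 0.074; the cause of these turns of sign was not tested.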
